A study of Mus musculus with 23 samples.

Results

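The RNA-seq samples numbered replicate 1 were compared with those numbered replicate 2 and 3 in mouse embryonic stem cells (ESCs) with a conditional Kdm2b allele. Of the 23 samples of the series, 6 are RNA-seq samples, and the replicate number in the sample labels divides them into 2 replicate 1 samples and 4 samples of replicate 2 or 3. Each replicate number occurs once among the samples labelled untreated and once among those labelled treated with tamoxifen, so treatment entered the comparison as a covariate. All 6 samples come from 1 line, MS12 KDM2Bfl/fl, in which loxP sites flank the exon coding for most of the ZF-CxxC domain of KDM2B. Treated cells received 800 nM 4-hydroxy tamoxifen for 72 hr to activate Cre recombinase, whereas the series text gives 800 µM. The names of the deposited files exchange both treatments in all 6 samples, a reading that was not used and that leaves every replicate 1 difference unchanged. The ChIP-seq samples were not analysed here.

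The study describes its RNA-seq samples as biological triplicates, but the labels do not say what the replicate number marks. A difference between replicate numbers can therefore arise in the culture, in the RNA or in the library, and these cannot be told apart. Whether both replicate 1 samples came from 1 culture or 1 round of library preparation is not stated, so the p-values below measure the spread between these 6 samples only.

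The ESCs were maintained on mouse embryonic fibroblasts arrested with mitomycin C and were placed without this feeder layer overnight before use. Feeder fibroblasts secrete collagens, fibronectin and growth factors and support ESCs, and their transcripts are found in ESC preparations to the extent that feeder cells are carried along. ESCs themselves express the pluripotency factors Pou5f1, Nanog and Sox2 and divide rapidly, with abundant transcripts for ribosomal proteins and glycolytic enzymes. Transcripts of matrix proteins are mostly long and those of ribosomal proteins short.

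Expression was measured as FPKM, in which the fragments assigned to a gene are divided by gene length and by library size. The 6 tables gave values for 23369 gene names, and 12997 genes with at least 0.5 FPKM in at least 3 samples were tested on log2(FPKM + 0.1) with limma. On this scale the change of low genes is understated. Between 11571 and 11980 rows per sample reached 1 FPKM, and the steps that single fragments leave in low genes put depth in the other 5 samples at 0.654 to 0.954 of that in untreated replicate 1. Kdm2b itself was read at 27.0 and 19.9 FPKM in untreated and treated replicate 1, at 21.5 and 27.7 in untreated replicates 2 and 3 and at 21.9 and 25.04 in treated replicates 2 and 3. The log2 difference between replicate 1 and the others was −0.05 (SE 0.19, limma adjusted p = 0.874). It turns to 0.48 when values are scaled to TPM, where the median of all genes is 0.56. A value for the whole gene cannot show the loss of 1 exon. In the sentences below, values for replicate 1 are given as untreated then treated, and those for replicates 2 and 3 as untreated 2, untreated 3, treated 2 and treated 3.

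Replicate 1 differed from replicates 2 and 3 in 2327 of the 12997 genes, 17.9% of all genes tested, at an adjusted p below 0.05. In replicate 1, 1185 of these genes (9.12% of genes tested) were higher and 1142 (8.79%) were lower, and 279 of the higher and 646 of the lower genes differed by more than 2-fold. The higher genes had a median log2 difference of 0.81 and the lower genes one of −1.07, while the median over all genes was 0.04. Replicate 1 against the rest accounted for 38.9% of the squared deviations of all genes from their means, replicate 2 against 3 for 23.5%, and the treatment label for 19.2%. Without the 160 genes listed at exactly 0 in some sample, these shares were 47.8%, 21.8% and 21.8%. Untreated and treated samples of the same number had a median absolute log2 difference of 0.285 for replicate 1, 0.239 for replicate 2 and 0.187 for replicate 3. The pair formed by treated replicates 2 and 3 was as close as that of replicate 1, at 0.284, and the other pairs of unlike numbers were further apart, from 0.309. The widest distance, 0.640, lay between treated replicate 1 and untreated replicate 2. The calls rest on both replicate 1 samples. Without treated replicate 1, 4 genes were called higher and 9 lower, and without untreated replicate 1 the counts were 3 and 61. In both fits the lone replicate 1 sample is assumed to vary like the others. Counts also fell without treated replicate 2, to 213 higher and 355 lower, and without treated replicate 3, to 300 higher and 504 lower. Without both samples of replicate 2 the counts rose to 2361 and 2188, and without both of replicate 3 to 3277 and 2782. The residual spread of these 2 fits no longer holds the difference between replicates 2 and 3, so the rise does not strengthen the calls.

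Among the called genes with a mean of at least 2 FPKM, no value of 0 and no overlap between groups, the 15 with the largest decrease were Prl2c3, Prl2c2, Grem1, Lox, Slc14a1, Ereg, Ptgs2, Lmbrd2, Pcdh7, Zbed6, Lnpep, Antxr2, Prrg4, Spink3 and Cd44. Their log2 differences ran from −3.58 to −2.34. In all genes tested, both replicate 1 samples were below the other 4 in 19.8% and above them in 24.7%, so the lack of overlap alone is common here. Of the 15 genes with the largest decrease and the 15 with the largest increase, 0 were still called without treated replicate 1 and 9 without untreated replicate 1. Grem1, a secreted antagonist of BMP ligands, was read at 3.23 and 0.809 FPKM in replicate 1 and at 19.6, 17.3, 14.1 and 13.5 FPKM in replicates 2 and 3. This is a log2 difference of −3.20 (SE 0.32, adjusted p = 0.0101), and both replicate 1 samples lay far below the lowest of the others. Lox, the enzyme that crosslinks collagen and elastin, had 1.82 and 0.479 FPKM against 9.61, 9.45, 7.37 and 6.97 (log2 difference −2.99, SE 0.30, adjusted p = 0.0101). Cd44, the hyaluronan receptor, maps to the minus strand of chromosome 2 (mm9), positions 102651300 to 102741822. It had 4.01 and 2.73 FPKM against 18.4, 20.0, 14.5 and 16.2 (log2 difference −2.34, SE 0.16, adjusted p = 0.00304). The lowest of the 4 other values of Cd44 was above both replicate 1 values, as the choice of these genes requires.

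Ereg, which codes for the EGF receptor ligand epiregulin, was at 0.563 and 0.249 FPKM in replicate 1 against 3.55, 4.59, 2.04 and 2.73 in the other samples (log2 difference −2.73, SE 0.24, adjusted p = 0.0077). Ptgs2, the inducible cyclooxygenase, was at 1.81 and 0.674 FPKM against 9.04, 15.8, 4.35 and 6.25 (log2 difference −2.72, SE 0.27, adjusted p = 0.0101). In both genes the untreated samples of replicates 2 and 3 were higher than the treated ones, but none reached down to replicate 1. Slc14a1, a urea transporter, was at 0.536 and 0.336 FPKM against 3.98, 3.93, 3.25 and 3.47. The remaining genes included Pcdh7, a protocadherin of cell adhesion, Antxr2, a receptor that binds matrix proteins, Lnpep, a membrane aminopeptidase, and Spink3, a secreted protease inhibitor. Treated replicate 1 held the lowest of the 6 values in 13 of the 15 genes, the exceptions being Prl2c3 and Spink3, where untreated replicate 1 was lowest. Zbed6 lies within another gene, so the fragments of both genes may be shared between them.

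**Figure D1:**
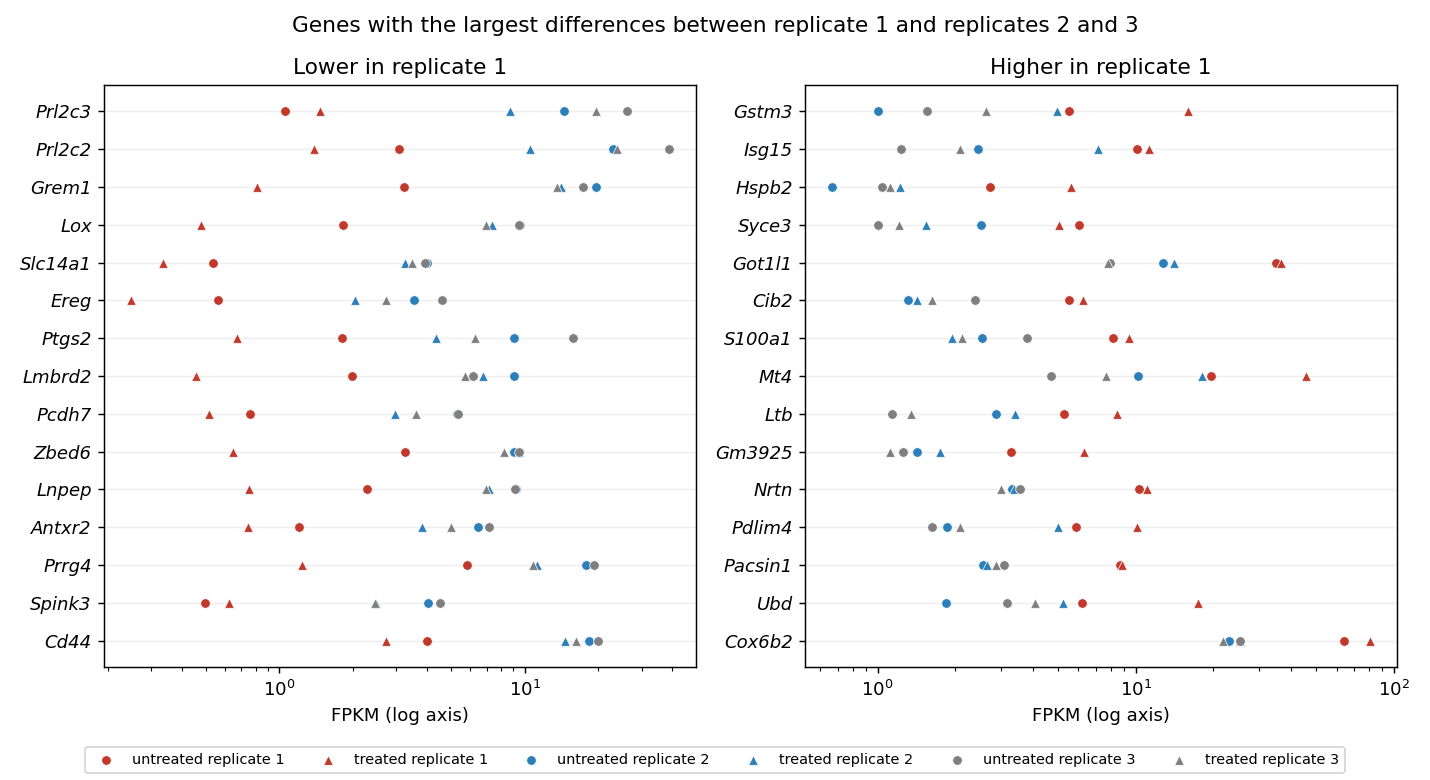
FPKM on a log axis in each of the 6 samples for the 15 genes with the largest decrease (left) and the 15 with the largest increase (right) in replicate 1. Circles stand for untreated and triangles for treated samples, in red for replicate 1, blue for replicate 2 and grey for replicate 3, and in each gene both red points lie on one side of all 4 others, as the choice of these genes requires.

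Proliferins, secreted members of the prolactin family known from placental giant cells and from growing fibroblasts, were lower in replicate 1 in 3 of 4 genes tested, against 8.79% of all genes. Prl2c2 occupies positions 13088391 to 13097597 of chromosome 13 (mm9, minus strand). It was read at 3.09 and 1.39 FPKM in replicate 1 and at 23.02, 38.7, 10.5 and 23.9 FPKM in the other samples (log2 difference −3.33, SE 0.36, adjusted p = 0.0106). Prl2c3 was at 1.06 and 1.47 FPKM against 14.5, 26.3, 8.69 and 19.6 (log2 difference −3.58, SE 0.42, adjusted p = 0.0124). Prl2c5 was at 0.597 and 0.134 FPKM against 2.70, 3.44, 1.56 and 3.37 (log2 difference −2.77, SE 0.40, adjusted p = 0.0164). The summed FPKM of the 4 genes was 2.99 to 6.32 in replicate 1 and 20.7 to 73.1 in replicates 2 and 3. These genes are near-identical copies, so how fragments were divided between them is uncertain. Their sum would be free of this only at equal transcript lengths, which were 850 nt for Prl2c2 and 971 nt for Prl2c5. Prl2c3 shares nearly all its positions with Prl2c4, the gene not called, which was listed at 0 in 3 samples.

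A list of 31 genes typical of feeder fibroblasts, with collagens, matrix proteins and mesenchymal factors, was lower in replicate 1. Of its 30 tested genes 20 were called lower and 0 higher, which is 66.7% against 8.79% of all genes tested, and the median log2 difference was −0.98 against 0.04 over all genes. This median kept its sign under every scaling tried, from −0.45 after scaling to TPM to −1.28 when loci under 300 bp were left out before scaling to TPM. It lay between −1.22 and −0.94 when single samples or replicate numbers were left out. The summed FPKM of the list was 524 to 533 in replicate 1 and 689 to 949 in the other samples. Ccl2, a chemokine, was at 1.28 and 1.61 FPKM in replicate 1 against 6.16, 8.95, 3.90 and 7.63 (log2 difference −2.07, SE 0.33, adjusted p = 0.0181). Cdh11, a cadherin of mesenchymal cells, was at 0.873 and 0.477 FPKM against 3.44, 3.00, 2.98 and 2.24 (log2 difference −1.99, SE 0.23, adjusted p = 0.0125). Prrx1, a mesenchymal transcription factor, was at 0.740 and 0.521 FPKM against 2.00, 3.85, 1.72 and 3.18. The most abundant member, Fn1 for fibronectin, differed less, with 65.0 and 56.3 FPKM against 124, 92.2, 143 and 98.7 (log2 difference −0.90, SE 0.22, adjusted p = 0.0397).

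The 12 genes taken as defining markers of fibroblasts summed to 59.5 and 90.0 FPKM in untreated and treated replicate 1 and to 114 to 156 FPKM in the others. Of 11 tested markers 6 were lower, 54.5% against 8.79% of all genes. Col1a1, a chain of type I collagen, was at 15.6 and 19.3 FPKM in replicate 1 against 40.3, 31.2, 38.2 and 29.7 (log2 difference −0.99, SE 0.20, adjusted p = 0.0255). Dcn, the matrix proteoglycan decorin, was at 2.19 and 1.88 FPKM against 7.74, 6.59, 7.33 and 8.44 (log2 difference −1.83, SE 0.19, adjusted p = 0.0101). Thy1, a surface glycoprotein of fibroblasts, was at 4.81 and 5.16 FPKM against 12.8, 10.6, 13.9 and 9.65 (log2 difference −1.20, SE 0.20, adjusted p = 0.0186). Col3a1, Fbn1 and Prrx1 were also lower. The other 5 tested markers did not pass the threshold. Col1a2, the partner chain of Col1a1, had 11.5 and 16.3 FPKM against 33.2, 19.1, 31.9 and 19.1 (adjusted p = 0.0936). Acta2, smooth muscle actin, had 14.6 and 40.1 FPKM against 25.8, 66.9, 15.6 and 32.3, and the groups overlapped, as they did for Twist1, Pdgfrb and Postn. Lum was below the filter, at 0 to 0.202 FPKM. In bulk RNA, fewer fibroblasts and less RNA per fibroblast cannot be told apart, and many of these genes can also be expressed by differentiating ESCs.

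The 6 markers of macrophages and blood summed to 9.64 to 10.96 FPKM in replicate 1 and 6.05 to 13.9 FPKM in the others, and Cd68, a lysosomal protein, made up most of this with 5.40 to 12.8 FPKM. Of the rest, Hba-a1 was at 0 to 1.29 FPKM and Csf1r, the receptor of macrophage growth factor, at 0.100 and 0.165 FPKM in replicate 1 against 0.652, 0.275, 0.595 and 0.153, with Hbb-b1 at 0 in every sample, Ptprc at no more than 0.0311 FPKM and Lyz2 at no more than 0.113 FPKM. The 6 ESC markers were high in every sample, with a summed FPKM of 1189 and 1396 in replicate 1 and 685 to 1073 in the others, and their log2 differences had a median of 0.27. Pou5f1, the central factor of pluripotency, was at 690 and 832 FPKM in replicate 1 against 369, 537, 475 and 552 (log2 difference 0.67, SE 0.20, adjusted p = 0.0644). Both replicate 1 samples were above all others, but the difference did not pass the threshold.

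The genes furthest above the other samples in replicate 1 changed less than the lower genes, with log2 differences from 2.08 down to 1.59. They were Gstm3, Isg15, Hspb2, Syce3, Got1l1, Cib2, S100a1, Mt4, Ltb, Gm3925, Nrtn, Pdlim4, Pacsin1, Ubd and Cox6b2. Gstm3, a glutathione S-transferase, was at 5.51 and 15.9 FPKM in replicate 1 against 1.00, 1.55, 4.96 and 2.62 (log2 difference 2.08, SE 0.30, adjusted p = 0.0164). Isg15 and Ubd code for ubiquitin-like proteins induced by interferon and inflammatory signals. Isg15 was at 10.1 and 11.3 FPKM against 2.45, 1.23, 7.14 and 2.09 (log2 difference 1.99, SE 0.52, adjusted p = 0.0433). It was the 1 gene called among 6 tested genes of the interferon response, a list with a median log2 difference of −0.36, and Bst2, another such gene, had an adjusted p of 0.115. Nrtn, the GDNF family ligand neurturin, was at 10.3 and 11.1 FPKM against 3.30, 3.55, 3.38 and 3.00 (log2 difference 1.67, SE 0.17, adjusted p = 0.0101). Pacsin1, an adaptor of endocytosis, was at 8.71 and 8.83 FPKM against 2.56, 3.10, 2.66 and 2.88 (log2 difference 1.62, SE 0.18, adjusted p = 0.0106). In Nrtn and Pacsin1 the values within each group lay close together, while in Gstm3, Mt4 and Ubd treated replicate 1 stood well above untreated replicate 1. Cox6b2, the testis isoform of a cytochrome c oxidase subunit at positions 4703396 to 4704696 of chromosome 7 (mm9, minus strand), was at 64.0 and 80.7 FPKM against 22.9, 25.4, 25.4 and 21.7 (log2 difference 1.59, SE 0.17, adjusted p = 0.0106).

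Genes of protein synthesis and energy metabolism were called higher more often than all genes tested, to an extent that differed between lists. Among 84 genes of cytosolic ribosomal proteins, the subunits of the translating ribosome, 70 were called higher, 83.3% against 9.12% of all genes tested, and their median log2 difference was 0.86. Rpl8 was at 2652 and 3386 FPKM in replicate 1 against 1228, 1509, 1610 and 1704 (log2 difference 1.00, SE 0.18, adjusted p = 0.0214). Rpl28 was at 348 and 426 FPKM against 132, 139, 150 and 183 (log2 difference 1.36, SE 0.16, adjusted p = 0.0126). Summed over the list, FPKM came to 45318 and 58196 in replicate 1 and to 24345 to 31068 in the others. The 1 member called lower, Rpl26, was listed at 0 in both replicate 1 samples and at 34.9, 71.3, 69.9 and 97.7 in the others. It shares its locus with another gene, and a value of 0 for a ribosomal protein gene may be a failed estimate, so no fold is given. Of 75 genes for mitochondrial ribosomal proteins 17 were higher (22.7%), 0 were lower and 58 were not called, with a median of 0.52 and with Mrpl23 and Mrpl24 among the most changed, at log2 differences of 1.17 and 0.92. Of 77 genes for subunits of oxidative phosphorylation 30 were higher (38.96%), 0 were lower and 47 were not called, with a median of 0.58. Beside Cox6b2 these included Cox7a1, a further cytochrome c oxidase subunit, at 58.8 and 70.2 FPKM against 29.8, 25.8, 26.2 and 24.3, and the complex I subunits Ndufs6 and Ndufb7 (log2 differences 1.05 and 1.03).

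Glycolysis genes followed, with 11 of 17 higher (64.7% against 9.12% of all genes) and 0 lower and a median log2 difference of 0.72. Pfkl, a subunit of phosphofructokinase, was at 111 and 132 FPKM in replicate 1 against 44.6, 50.9, 72.0 and 64.8 (log2 difference 1.09, SE 0.16, adjusted p = 0.0166). Aldoa, which splits fructose bisphosphate, was at 1001 and 1230 FPKM against 395, 497, 623 and 640 (log2 difference 1.07, SE 0.18, adjusted p = 0.0183). Pgk1, phosphoglycerate kinase, was at 254 and 351 FPKM against 110, 132, 181 and 168 (log2 difference 1.04, SE 0.16, adjusted p = 0.0175). In these 3 enzymes both replicate 1 samples were above all others. Pkm, the most abundant of the list, had a log2 difference of 0.69 (adjusted p = 0.046). Proteasome subunit genes had 9 of 38 higher (23.7% against 9.12% of all genes) and 0 lower. The 3 with the largest differences were the inducible catalytic subunits Psmb8, Psmb9 and Psmb10 (log2 differences 1.43, 1.11 and 0.93). The medians of all 5 of these lists kept their sign under each scaling, with the lowest values at 0.49 for cytosolic and 0.22 for mitochondrial ribosomal proteins, 0.28 for oxidative phosphorylation, 0.37 for glycolysis and 0.18 for the proteasome.

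Of 19 tested genes of the amino acid and endoplasmic reticulum stress response 4 were higher, 21.1% against 9.12% of all genes, and 1 was lower, 5.26% against 8.79%. Nupr1, a stress-induced chromatin protein, was at 17.8 and 32.3 FPKM in replicate 1 against 6.23, 7.17, 10.2 and 11.1 (log2 difference 1.49, SE 0.16, adjusted p = 0.0106). Asns, asparagine synthetase, was at 163 and 292 FPKM against 73.8, 110, 154 and 151 (log2 difference 0.90, SE 0.20, adjusted p = 0.0299), and Ddit4, an inhibitor of mTORC1, had a log2 difference of 1.03. Dnajb9, a chaperone of the endoplasmic reticulum, was the lower gene, at 7.94 and 7.56 FPKM against 19.3, 14.1, 13.0 and 11.7 (log2 difference −0.87, SE 0.19, adjusted p = 0.031). The sterol, hypoxia, p53 and G2 lists had 5.26% to 15.4% of genes higher and 0% to 5.26% lower, shares near or below those of all genes except for hypoxia genes at 15.4% higher. Sterol synthesis genes had 2 of 23 higher, Mvd and Fdps at log2 differences of 1.14 and 0.85, and 1 lower, Hsd17b7 at −1.10. Hypoxia genes had 2 of 13 higher, with Bnip3, a mitophagy receptor, at 0.82, while Egln3 missed the threshold (adjusted p = 0.0711). The p53 targets had 1 of 19 higher, Bbc3, which codes for the cell death protein PUMA (log2 difference 0.94), and 1 lower, Eda2r (log2 difference −1.09). Of 15 genes of G2 and mitosis 1 was higher, the cyclin gene Ccnb2 (log2 difference 0.77).

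Immediate early genes respond to serum and handling within minutes. Fos was at 43.8 and 9.18 FPKM in replicate 1 against 12.2, 2.19, 12.8 and 1.94, with untreated replicate 1 the highest and both samples of replicate 3 the lowest. Egr1 was at 92.7 and 32.6 FPKM against 63.1, 12.6, 35.0 and 10.0, and Fosb showed the same order of its extremes, with 11.2 in untreated replicate 1 and 0.323 and 0.315 in replicate 3. None of these 3 passed the threshold (adjusted p = 0.182 for Fos, 0.249 for Egr1 and 0.357 for Fosb). Myc went the other way, at 11.4 and 5.62 FPKM against 16.1, 29.6, 9.04 and 17.3. It did not pass either (log2 difference −1.03, SE 0.33, limma adjusted p = 0.0737). The log2 difference was positive in 12 genes of the list and negative in 2. Of the 14 tested genes of the list 2 were higher, 14.3% against 9.12% of all genes, among them Ier2, which hardly differed within replicate 1, at 116 and 116 FPKM against 66.8, 60.5, 69.7 and 52.97 (log2 difference 0.90, SE 0.17, adjusted p = 0.0233).

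Of 16 naive pluripotency genes 2 were higher, 12.5% against 9.12% of all genes, and 0 were lower. Dppa3, a maternal factor that protects DNA methylation, was at 45.9 and 132 FPKM in replicate 1 against 21.6, 21.8, 53.6 and 53.4 (log2 difference 1.19, SE 0.15, adjusted p = 0.0136). Within each treatment label replicate 1 was higher, although the groups overlap when the labels are pooled. Tcl1, a co-activator of AKT, was at 25.3 and 42.9 FPKM against 12.2, 14.7, 21.1 and 19.9 (log2 difference 0.99, SE 0.16, adjusted p = 0.0181). The median of the list, 0.25, fell to −0.01 with quantile normalization. Of 12 formative and primed genes 1 was lower and 1 higher, 8.33% in each direction. Cdh2, N-cadherin, was at 7.61 and 3.71 FPKM against 19.2, 21.8, 11.02 and 11.9 (log2 difference −1.507, SE 0.16, adjusted p = 0.0106), and Tead2 had a log2 difference of 0.62.

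Of 13 tested primitive endoderm genes 23.1% were lower against 8.79% of all genes. These were Pdgfra and the basement membrane collagens Col4a1 and Col4a2, which fibroblasts express as well. Pdgfra, the receptor for platelet-derived growth factor, was at 0.883 and 0.433 FPKM in replicate 1 against 3.58, 2.64, 3.04 and 2.27 (log2 difference −2.02, SE 0.27, adjusted p = 0.0151). The 5 genes taken as defining primitive endoderm, among them the factors Gata4 and Gata6, summed to 4.33 to 6.32 FPKM in replicate 1 and 4.23 to 7.76 FPKM in the others. Among trophoblast genes 1 of 8 was lower, Hand1 at 6.69 and 4.99 FPKM against 16.5, 11.7, 11.2 and 7.71, and 1 was higher, Tfap2c (log2 differences −0.96 and 0.73), 12.5% in each direction. Lists of the primitive streak, neural progenitors, the germline, the two-cell-like state, BMP and ID genes and heat shock genes had 0 genes called by limma. Of their 7, 8, 11, 9, 9 and 9 genes tested, 1, 0, 1, 2, 2 and 4 had an unadjusted limma p below 0.05. Such a p was also found in 4823 of all 12997 genes tested. After the correction for length and GC content described below, 1 germline gene was called higher, as were 2.86% of all genes. This was Sycp3 (log2 difference 0.78, limma adjusted p = 0.0395), and the other lists without a call had none after it. A call missed in so few samples does not show that these genes were alike.

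LIF signalling keeps ESCs in the naive state and FGF and ERK signalling drives them out of it. Of 9 genes of the LIF pathway, Il6st and Lifr, the 2 chains of the LIF receptor, were lower, 22.2% against 8.79% of all genes. Il6st was at 7.43 and 8.76 FPKM in replicate 1 against 17.6, 11.8, 20.1 and 14.4 (log2 difference −0.95, SE 0.23, adjusted p = 0.0361), and Lifr was at 5.24 and 4.203 FPKM against 11.1, 8.98, 9.31 and 7.17 (log2 difference −0.93, SE 0.19, adjusted p = 0.0257). Pim3, a kinase gene induced by STAT3, was higher (log2 difference 0.69, adjusted p = 0.0434). Of 11 feedback genes of FGF and ERK signalling 27.3% were lower against 8.79% of all genes, Spred2, Spred1 and Spry4 (log2 differences −1.14, −0.98 and −0.97). After the correction for length and GC content described below, 0 genes of either list were called. The list medians, −0.27 for LIF and −0.23 for FGF and ERK, turned positive after scaling to TPM, to 0.26 and 0.30, where the median of all genes rose to 0.56.

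Imprinted genes, expressed from 1 parental allele and variable between ESC cultures, had 7 of 22 lower and 0 higher, 31.8% against 8.79% of all genes. Dlk1, a Notch ligand homologue at positions 110691033 to 110701546 of chromosome 12 (mm9, plus strand), was at 9.47 and 5.28 FPKM in replicate 1 against 32.0, 25.3, 20.3 and 19.04 (log2 difference −1.73, SE 0.17, adjusted p = 0.0101). Igf2, the fetal growth factor, was at 28.4 and 23.3 FPKM against 79.5, 69.1, 46.0 and 44.3 (log2 difference −1.17, SE 0.17, adjusted p = 0.0164). H19, its neighbour expressed from the other allele, was at 259 and 306 FPKM against 272, 169, 239 and 126, and the groups overlapped (adjusted p = 0.262). Peg3 and Magel2 were lower as well, at log2 differences of −1.38 and −1.34. The median of the list was −0.37 and turned to 0.14 after scaling to TPM, still below the median of all genes at that scaling. Fibroblasts also express Igf2 and Dlk1, and the fibroblast markers were lower in the same samples. The part of these markers in the differences was not tested.

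Polycomb genes, whose products include the complexes that the study examined, showed no common direction. Of 29 genes 10.3% were lower and 3.45% higher, against 8.79% and 9.12% of all genes, so the share lower was near that of all genes. The 3 lower genes were Phc3, Bmi1 and Pcgf3 (log2 differences −1.13, −1.07 and −0.82), and 1 was higher, Pcgf1, the partner of KDM2B in its PRC1 complex, at 8.50 and 11.7 FPKM in replicate 1 against 5.94, 5.86, 5.82 and 5.13 (log2 difference 0.80, SE 0.19, adjusted p = 0.0358). The 3 lower genes have 3′ UTRs of 2148 to 7965 nt, and none of the 4 was called after the correction for length and GC content described below. After it 1 other gene of the 29 was called higher, as were 2.86% of all genes. Of 11 tested Hox genes 1 was lower, 9.09% against 8.79% of all genes, and 0 were higher.

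**Figure D2:**
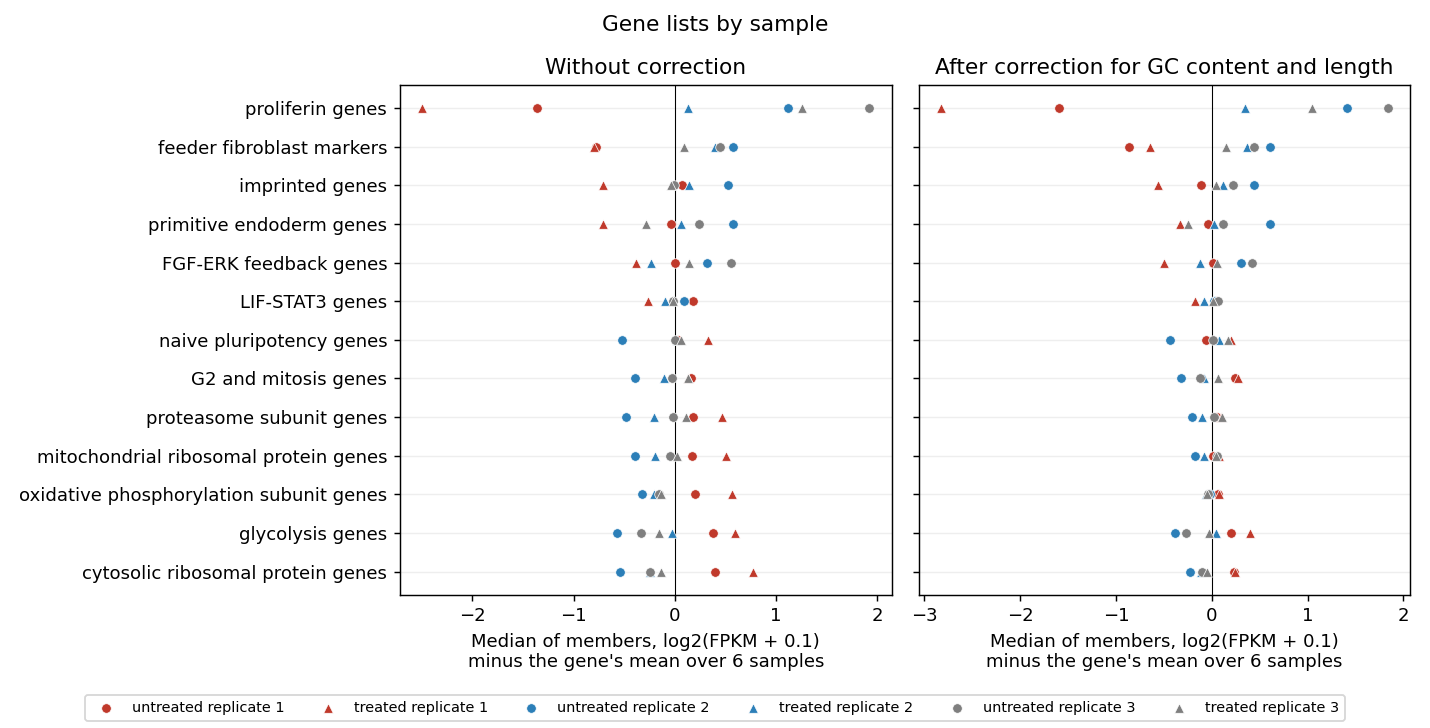
Median over the tested members of 13 gene lists in each sample, as log2(FPKM + 0.1) minus the mean of the gene over the 6 samples, without (left) and with (right) correction for transcript GC content and length. Circles are untreated and triangles treated samples, and the red points of replicate 1 lie below all others for the proliferin and fibroblast lists in both panels, whereas those of mitochondrial ribosomal proteins and oxidative phosphorylation move to between 0.00 and 0.10 on the right.

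Across all genes the replicate 1 difference followed the length and the GC content of the transcript. Genes were divided into 10 bins of equal size by each property. In the bin of the shortest transcripts, up to 1226 nt, the median log2 difference was 0.56, with 30.1% of genes called higher and 3.25% lower. It fell through every following bin and reached −0.51 in the longest, from 6239 nt, where 0.50% were called higher and 28.5% lower. By GC content it rose from −0.48 in the lowest bin, up to 42.1% GC, to 0.38 in the highest, from 58.6% GC. With 4 bins of each property combined, the median went from 0.55 for genes in the shortest bin and the richest in GC to −0.63 for genes in the longest and poorest. Genes called higher had a median transcript of 1542.5 nt with 55.2% GC and a 3′ UTR of 355.5 nt, and genes called lower had 4896 nt, 44.4% GC and 2197.5 nt. Genes not called lay between, at 2993 nt, 50.9% GC and 1042 nt. The samples did not share these trends equally. From the shortest to the longest bin the median deviation from the gene mean fell from 0.55 to −0.57 in treated replicate 1. In untreated replicate 1 it fell from 0.20 to −0.11, and it rose in the other samples. From the lowest to the highest GC bin it rose in replicate 1 and fell in replicate 3, from 0.30 to −0.18 (untreated) and 0.29 to −0.27 (treated). Replicate 2 lay within 0.04 of 0 in both of these bins. Lengths were taken for 92.1% of the tested genes from the longest coding transcript of the GENCODE annotation of the same build, which need not be the isoform expressed.

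**Figure D3:**
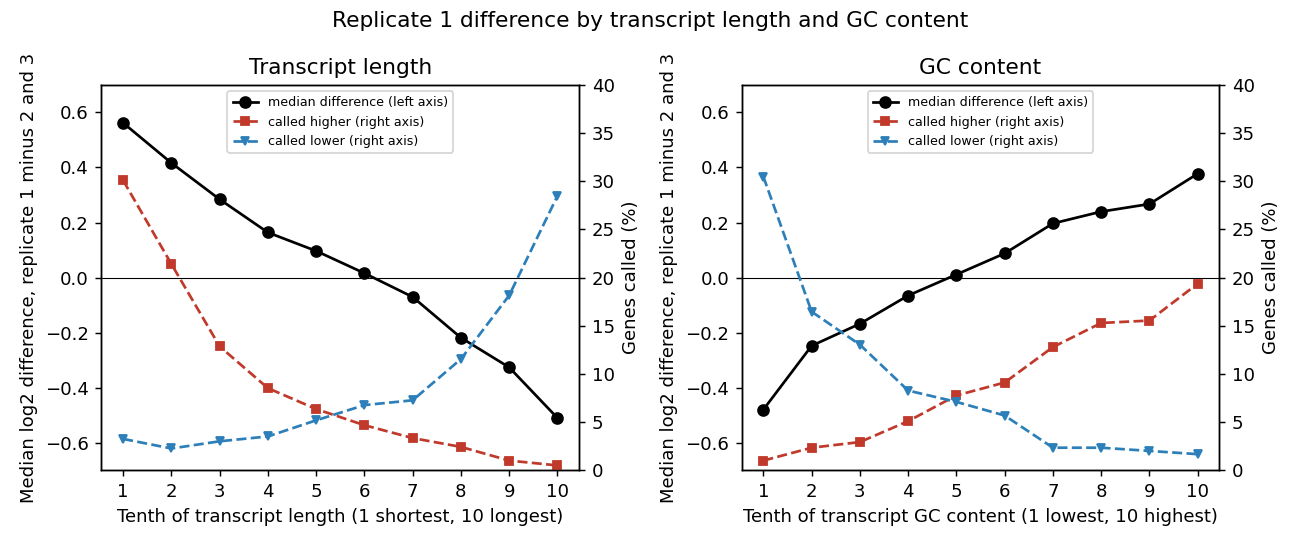
Median log2 difference between replicate 1 and replicates 2 and 3 (black, left axis) and share of genes called higher or lower (red and blue, right axis) in 10 bins of transcript length (left) and GC content (right). The median falls from 0.56 to −0.51 with length and rises from −0.48 to 0.38 with GC content.

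When the median deviation in bins of transcript length and GC content was taken off each sample, 342 genes (2.86% of 11973) were called higher and 398 (3.32%) lower, 6.18% in both directions. Of the 2162 called genes with a known transcript, 529 were called in the same direction after this correction, which was chosen after the data had been seen. The lists differed in how they responded. The fibroblast list kept a median of −0.83 with 13 of 30 genes lower, and a median transcript length of 4342 nt. Of the 11 tested defining fibroblast markers 3 were lower after the correction, with a median of −0.78, instead of 6. The 3 proliferin genes with a known transcript, which are short at a median of 850.0 nt, kept a median of −3.56 with all 3 called lower. Of the 15 genes with the largest decrease, Zbed6 had no annotated coding transcript and the other 14 were still called lower, among them Lmbrd2 at −2.13 (adjusted p = 0.0432) and Cd44 at −1.87 (adjusted p = 0.00819). Dlk1 and Igf2 also kept their calls, at −1.69 and −1.15. The medians of mitochondrial ribosomal proteins, oxidative phosphorylation and the proteasome came down to 0.07, 0.11 and 0.11, while those of glycolysis and cytosolic ribosomal proteins kept 0.44 and 0.40, with 5 of 16 and 15 of 82 genes still higher. Pfkl and Pgk1 kept their calls, at 1.03 and 0.81, and Aldoa, Rpl8 and Rpl28 lost theirs. Among the 15 genes with the largest increase, 8 of the 14 with a known transcript kept the call, among them Pacsin1 at 1.59, Gstm3 at 1.59, Nrtn at 0.97 and Cox6b2 at 0.94, and Isg15, Syce3, Got1l1, Mt4, Ltb and Pdlim4 did not. Of the other 58 called genes described here that have a known transcript, 22 were called after the correction and 36 were not. Those still called were Ccl2, Cdh11, Col3a1, Dcn, Thy1, Prl2c5, Dppa3, Cdh2, Pdgfra, Col4a1, Hand1, Nupr1, Asns, Mvd, Pfkl, Pgk1, Bnip3, Dlk1, Magel2, Igf2, Rpl26 and Mrpl24. Those no longer called were the matrix and mesenchymal genes Prrx1, Fn1, Col1a1, Fbn1 and Col4a2, the signalling genes Il6st, Lifr, Pim3, Spred1, Spred2 and Spry4, the stress genes Ddit4, Dnajb9, Bbc3, Eda2r and Ier2, and the metabolic genes Hsd17b7, Fdps and Aldoa. The call was also lost for Tcl1, Tead2, Ccnb2, Peg3, Phc3, Bmi1, Pcgf3 and Pcgf1, and for Rpl28, Rpl8, Mrpl23, Cox7a1, Ndufs6, Ndufb7, Psmb8, Psmb9 and Psmb10.

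A gene could hardly be called unless both treatment labels gave the same direction, as all 2327 called genes did. The difference was larger between the treated samples in 1669 of them. Across all genes, which are not independent replicates, the log2 differences within the untreated and within the treated samples had a Pearson correlation of 0.544 and a Spearman correlation of 0.804, and 1051 and 1691 genes differed by more than 2-fold. The log2 difference of Lmbrd2, for instance, was −1.86 in the untreated and −3.50 in the treated samples, whereas that of Antxr2 was −2.40 in both. An interaction of replicate 1 with the label passed the threshold in 19 genes, 0.146% of those tested. Each of the 19 was listed at exactly 0 in some sample, and 0 genes passed when genes with such values were left out, with 158 at an unadjusted p below 0.05.

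The median log2 difference of the autosomes and X lay between −0.19 and 0.15 apart from chromosome 8, where it was 0.26. Of 694 genes on chromosome 8, 17.4% were called higher and 4.61% lower, against 9.12% and 8.79% of all genes. The samples that stood apart there were those of replicate 3 rather than replicate 1. After the correction for GC content and length the median deviation of chromosome 8 genes was 0.09 and 0.08 in replicate 1, 0.09 and 0.05 in untreated and treated replicate 2, and −0.15 and −0.15 in untreated and treated replicate 3. The mean of replicates 1 and 2 over replicate 3 was 1.17-fold, and for the other autosomes and X it lay between 0.96 and 1.02. The lower level of replicate 3 ran along the chromosome, since in 12 of 13 windows of 10 Mb with at least 5 genes both replicate 3 samples were below the other 4. This pattern was noticed in the data and carries no test. On chromosome Y, with 6 tested genes, 3 were lower (50% against 8.79% of all genes) and the median log2 difference was −0.71, or −0.24 after the correction. The 3 lower genes, Ddx3y, Uty and Zfy1, were no longer called after the correction. On chromosome X, 17.2% of 471 genes were called lower and 3.82% higher, against 8.79% and 9.12% of all genes. Its median log2 difference was −0.19, or −0.08 after the correction. On chromosome 13 both replicate 1 samples had the lowest corrected medians, at −0.07 and −0.05. They were also lowest on chromosomes 3, 5, 6, 17, 19 and X, at smaller deviations, and on chromosome Y, at −0.12 and −0.20.

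**Figure D4:**
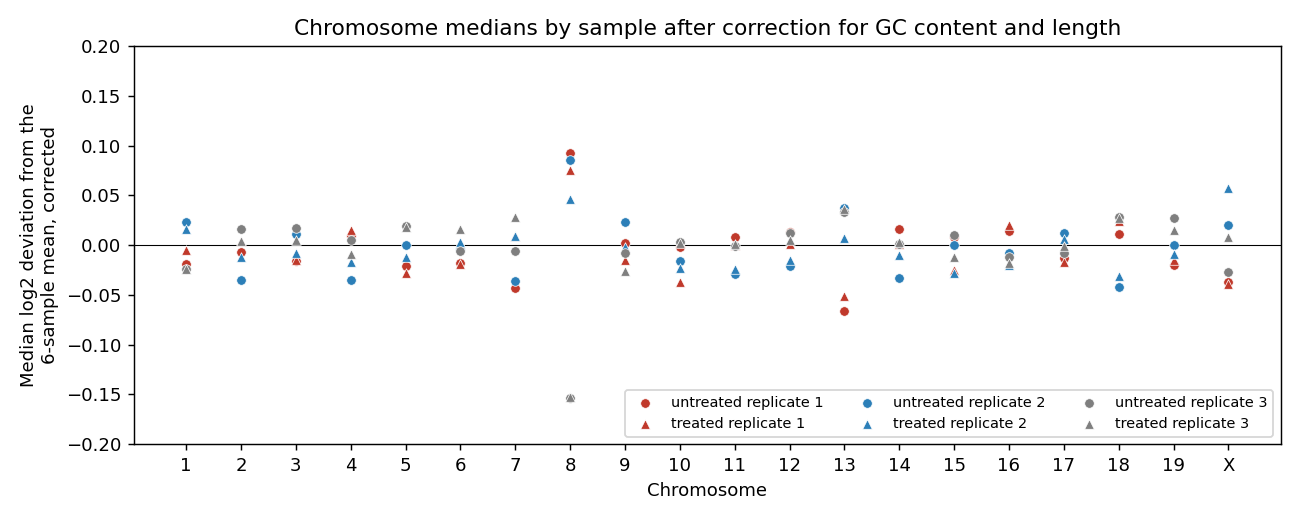
Median deviation of the genes of each chromosome from the 6-sample mean, on the log2 scale and corrected for GC content and length, in each sample (circles untreated, triangles treated; red replicate 1, blue replicate 2, grey replicate 3). On chromosome 8 both grey points lie at −0.15 and on top of each other, while the other 4 samples lie between 0.05 and 0.09.

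Very short loci separated replicate 1 from the other samples in the FPKM totals. The 810 rows of the tables shorter than 300 bp, many of them small RNA genes, held 23.9% and 25.6% of the summed FPKM in replicate 1 and 67.7%, 54.7%, 61.6% and 42.3% in the others. Without them the sums were 418304 and 462140 in replicate 1 and 337252 to 374372 in replicates 2 and 3. The highest of these loci are box C/D snoRNA genes, which guide methylation of ribosomal RNA and lie within introns of longer genes. The sequences of 4 of the 5 highest, read from the same build on the annotated strand, show how short they are beside paired reads of 51 bp, and capitals mark CTGA, the consensus of box D:
Snord12: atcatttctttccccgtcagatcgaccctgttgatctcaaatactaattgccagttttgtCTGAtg
Snord49b: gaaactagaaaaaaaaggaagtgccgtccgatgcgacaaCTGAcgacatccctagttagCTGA
Snord65: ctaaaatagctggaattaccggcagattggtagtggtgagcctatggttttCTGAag
Snord69: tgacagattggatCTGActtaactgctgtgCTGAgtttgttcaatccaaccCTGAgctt
They lie at chr2:166890793-166890858 (plus strand), chr11:62416588-62416650 (plus), chr11:62418032-62418088 (plus) and chr14:31827479-31827537 (minus). Searched on the transcribed strand, CTGA occurred in 23 of 23 Snord loci and in 28.0% of the first 66 bases of all promoters in the RefSeq table, read on 1 strand. The letters TGATGA, the core of box C, occurred in 7 of 23 loci, among them none of the 4 shown, and in 1.32% of the promoter windows.

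Snord12 was at 12437 and 21390 FPKM in replicate 1 and at 207235, 53255, 155434 and 31950 in the others, so that both replicate 1 samples were lowest, but the difference did not pass the threshold (log2 difference −2.40, SE 0.78, adjusted p = 0.076). Snord85 was listed at 0 in both replicate 1 samples and at 28075, 12389, 30137 and 12420 in the others. Loci under 100 bp were compared at equal length within each sample, and 1 smallest value of each group was set aside. Of the other 67 values, 46 were equal to it or a whole multiple of it, to within 2% of the smallest value. Values tied with the smallest are counted among the 46. Of 34 tested snoRNA genes 4 were lower, 11.8% against 8.79% of all genes, and 0 were higher. Scaling to TPM divides by a sum that holds these loci, and calls became 2127 higher and 219 lower, whereas with such loci left out before scaling they became 426 higher and 2462 lower. The median of all genes moved to 0.56 and −0.25 in these scalings.

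**Figure D5:**
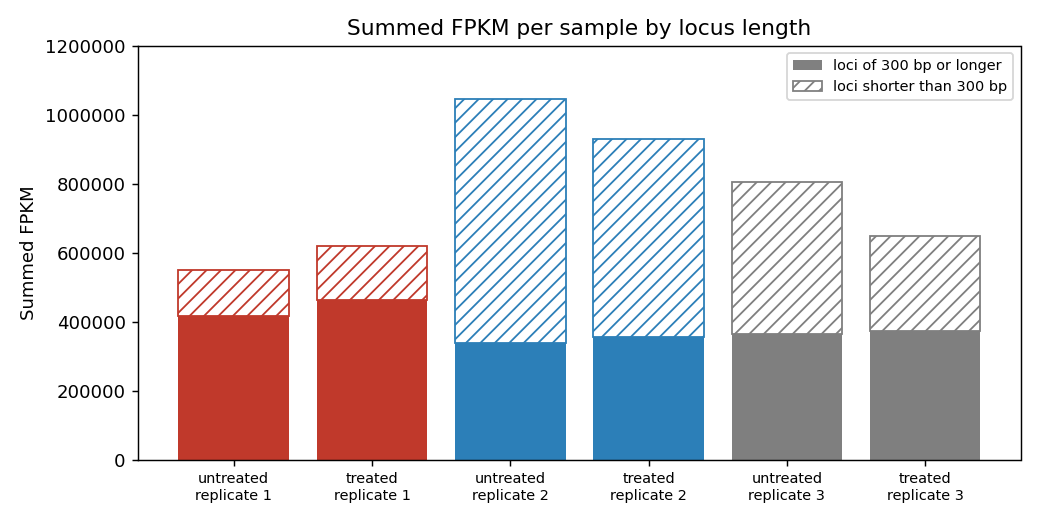
Summed FPKM of each sample, divided into loci of at least 300 bp (solid) and shorter loci (hatched), in red for replicate 1, blue for replicate 2 and grey for replicate 3. The hatched part makes up 23.9% and 25.6% of the sum in replicate 1 and 42.3% to 67.7% in the other samples.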

How the data were processed

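RNA-seq of 3 untreated and 3 tamoxifen-treated samples was used. Per the labels and the methods of the study, the authors prepared directional paired-end libraries (51 bp) from polyA+ RNA, aligned them to mm9 with TopHat2 and deposited FPKM values per gene from cuffdiff 2.1.1 on refGene models, which the methods call RPKM. They made 1 table per sample and did not pool replicates. Read counts are not in the tables, so no counting interval is given.

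Groups and replicate numbers came from the sample labels. FPKM rows of one gene name were summed, and 6 of 23369 gene names with a failed quantification were left out. Replicate 1 was compared with replicates 2 and 3 by limma 3.58.1 (R 4.3.3) on log2(FPKM + 0.1), with the treatment label as covariate, eBayes with a mean-variance trend, Benjamini-Hochberg adjustment over 12997 genes and a threshold of 0.05. There are 3 residual degrees of freedom, and 2 in the interaction fit. The fit was also run on simulated data with known differences and noise drawn independently for each sample. Such noise lacks the likeness between samples of the same number, so the simulation does not test the calls made here. The GC and length correction takes off each sample its median deviation in 20 bins of each property, alternately and repeatedly. Tables were made with Python 3.11.15 and pandas 2.3.3.

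Named genes were the 15 largest differences in each direction among called genes with a mean of at least 2 FPKM, no value of 0, a locus of at least 300 bp and no overlap between the groups. Of each of 33 gene lists they were taken from the 4 members with the largest difference and the most abundant one, and Kdm2b and cell type markers were added. Of the lists not described with genes, the replication-dependent histone genes had 2 of 51 higher, 3.92% against 9.12% of all genes. MicroRNA genes had 1 of 10 lower, 10% against 8.79% of all genes. After the GC and length correction 0 histone genes were higher and 3 lower, and the median of that list turned from 0.47 to −0.24. The members compared, the gene lists and the tests were chosen with earlier results of these data known.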

Additional observations from a re-analysis of the deposited data

Results flagged for a closer look

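The replicate 1 difference was compared between the treatment labels by an interaction term, and 19 of 12997 genes passed the threshold (limma, adjusted p below 0.05), 3 with a more positive and 16 with a more negative difference in the treated samples. All 19 had at least 1 sample listed at exactly 0 beside measurable values in others. Among the genes picked out by the naming rule, Mir5133 was one of them, with a log2 interaction of −13.83. It was listed at 0 in treated replicate 1 and read at 1345 FPKM in untreated replicate 1, and the others were at 10208, 2431, 5891 and 4912 FPKM, so the value rests on 1 sample at 0 of a locus of 77 bp.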

How the results depend on the processing

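No paired analysis was possible because the replicate number is what was compared and cannot also be a block. Counts of genes higher and lower, 1185 and 1142, became 770 and 709 with quantile normalization, 2127 and 219 after scaling to TPM, 426 and 2462 with loci under 300 bp left out and scaling to TPM, 643 and 666 with no filter, 610 and 668 without the treatment label, 313 and 480 after correction for transcript length and 342 and 398 for GC content and length. Higher genes were 50.9% of calls, 90.7% after scaling to TPM and 14.8% with short loci left out first. Leaving out 1 sample or 1 replicate number gave 3 to 3277 genes higher and 9 to 2782 lower, the lowest without a replicate 1 sample. The interaction, 19 genes, gave 7 with quantile normalization, 2 with a pseudocount of 1 and 0 without genes at 0. The cause was not tested. Other alternatives kept both counts within 1.5 times. Some genes without a call changed sign. Kdm2b turned to 0.48 after scaling to TPM, 0.23 after length and 0.10 after GC and length correction. Scaling to TPM also turned Twist1 to 0.33, Pdgfrb to 0.16 and Acta2 to 0.19. The median of all genes rose to 0.56 at that scaling, above each of these genes. Pdgfrb turned to 0.0748 after length correction. On leaving out samples or replicates Kdm2b lay between −0.24 and 0.14, Twist1 between −0.45 and 0.0696 and Acta2 between −1.508 and 0.83. Depth in reads is unknown, which limits what can be said of low genes.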
